A study of Mus musculus with 19 samples.

Results

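The subcortical maternal complex is a protein assembly that the growing oocyte builds beneath its surface and that persists in the outer cytoplasm of the early embryo. Several of its components are classic maternal-effect products. A female that lacks one of these makes eggs that fertilise, but the embryos stall in early cleavage whatever their own genotype. Transcripts of the components accumulate in the oocyte and are largely cleared after fertilisation, while the proteins can outlast them. The 7 genes described here were taken by symbol from the deposited table of 53379 gene rows: Ooep, Khdc3, Padi6, Nlrp5, Nlrp14, Tle6 and Zbed3. All 7 were found, each as 1 row.

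The series measured poly(A) RNA of 19 single mouse embryos, each 1 library, after in vitro fertilisation. Oocytes and sperm came from heterozygous mice (Alyref+/- crossed with Alyref+/-, or Gabpb1+/- crossed with Gabpb1+/-), or from wild-type B6D2F1 mice as a control. B6D2F1 is also the strain label of the heterozygous crosses. Every embryo was cultured in KSOM medium at 37 °C under 5% CO2 and collected at 96 hours after insemination, so morulae and blastocysts had the same age. The 7 groups were Alyref KO (Alyref-/-) morulae (n = 2), non-KO morulae of the Alyref cross (n = 3), Gabpb1 KO (Gabpb1-/-) morulae (n = 3), non-KO morulae of the Gabpb1 cross (n = 2), non-KO blastocysts of the Alyref cross (n = 3) and of the Gabpb1 cross (n = 3), and WT blastocysts (n = 3). A non-KO embryo was WT or heterozygous, without distinction. KO and non-KO embryos of a cross both grew from oocytes of heterozygous females, and no group had a KO mother. The submitters called a KO from the absence of reads over the deleted region.

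Libraries held 7486125 to 31536282 gene counts (median 13633603), and the added ERCC spike-in RNA made up 0.501 to 1.95% of counts. Alyref stood at 47.8 to 58.5 counts-per-million units (CPM) in the Alyref KO morulae and at 162 CPM or more in every other embryo. Gabpb1 itself stood at 78.1 to 259 CPM in embryos with the Gabpb1 KO label and at 83.2 to 93.8 CPM in non-KO morulae of that cross, so its level was no lower, and a table of gene counts cannot show the deleted region, so these embryos are called "labelled Gabpb1 KO" and any direction drawn from them rests on that label. The third non-KO morula of the Alyref cross stood apart from its group: its summed trophectoderm markers reached 1862 CPM, against 594 and 595 CPM in the other 2. Markers of cells that could cling to an embryo were near the floor: 11 cumulus and granulosa cell markers summed to 0.185 to 5.76 CPM with Fshr at 0 throughout, and 7 sperm markers to 0.0926 to 2.15 CPM with Tnp1 and Akap4 at 0.

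The upstream sequences of Ooep, Padi6 and Khdc3 are shown because the differences described below are mainly those of these 3 genes. Each stretch below is taken from the 250 bases before the RefSeq start site (GRCm38.p6), without the bases that GENCODE M21 places in an exon of the same gene. It is written 5′ to 3′ on the gene's strand. Capitals mark 2 motifs known from oocyte promoters, searched on both strands: the E-box CANNTG, the kind of site that FIGLA binds, and TAATTG, the element that NOBOX binds.
Ooep: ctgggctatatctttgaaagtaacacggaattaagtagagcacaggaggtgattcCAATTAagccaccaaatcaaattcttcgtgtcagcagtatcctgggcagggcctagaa
Padi6: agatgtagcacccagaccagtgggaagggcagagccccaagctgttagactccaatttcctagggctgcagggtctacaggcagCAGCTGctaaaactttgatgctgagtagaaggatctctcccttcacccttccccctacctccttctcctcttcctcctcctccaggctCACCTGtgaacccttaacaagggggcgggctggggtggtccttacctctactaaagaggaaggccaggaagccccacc
Khdc3: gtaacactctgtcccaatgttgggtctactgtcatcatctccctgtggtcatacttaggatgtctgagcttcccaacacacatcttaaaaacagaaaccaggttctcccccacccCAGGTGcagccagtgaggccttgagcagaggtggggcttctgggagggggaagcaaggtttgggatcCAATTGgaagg

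The Ooep stretch lies at chr9:78378726-78378838 on the minus strand, Padi6 at chr4:140742644-140742893 on the minus strand and Khdc3 at chr9:73102205-73102397 on the plus strand. The Khdc3 stretch lies in an intron of the GENCODE gene, since the RefSeq start site is 562 bases downstream of the GENCODE one. The RefSeq promoter table used here matched 6 of the 7 members. Over the full 250 bases, Ooep had 1 E-box and 1 TAATTG element, Padi6 had 2 E-boxes and Khdc3 had 5, of which a pair overlapped. In all 3 genes an E-box began 78 bases before the RefSeq start site, a position picked after it was seen. For Ooep that base falls within the first exon of GENCODE, which starts 137 bases further upstream, and so the motif is not in the printed stretch. Among 32851 mouse promoters of the same length, 66.2% held at least 1 E-box, 0.484% had one that began at exactly that base, and 7.17% held TAATTG. The 3 regions differed in CG content: Ooep held 11 CG pairs over the full 250 bases, Padi6 held 1 and Khdc3 held 0, against a median of 6 over all promoters. CCGGAAG, a core that GABP (the factor that includes Gabpb1) recognises, was in none of these 3 windows and in 1 of the 2 Tle6 entries, against 6.91% of all promoters. TATAAA was in none of the 3 either, against 12.4% of all promoters. These are letter matches and no measure of binding.

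The 7 transcripts spanned a very wide range of abundance, and Khdc3 was first in all 19 embryos. To set genes side by side, levels scaled to library size and per kilobase of gene length (FPKM) were computed from the counts and the table's gene lengths. Mean FPKM over the 19 embryos was 439 for Khdc3, 38.6 for Ooep, 3.86 for Padi6, 1.57 for Tle6, 1.43 for Zbed3, 0.255 for Nlrp14 and 0.0704 for Nlrp5. By this level Khdc3 lay at percentile 99.0 of the 18410 genes tested, Ooep at 86.4, Padi6 at 49.2, Tle6 at 30.0 and Zbed3 at 27.9. Ooep was second by FPKM in 18 embryos, and in 1 embryo Padi6 exceeded it. Below these the order was not stable: Padi6 ranked 3 in 10 embryos, Tle6 in 4 and Zbed3 in 4, and the ranges of these 3 genes overlapped. Khdc3 alone made up 79.7 to 96.3% of the summed counts of the 7 genes (median 89.0%).

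A gene was tested where FPKM reached 1 in at least 2 embryos. This held for 5 of the 7 members: Khdc3, Ooep, Padi6, Tle6 and Zbed3. Nlrp14 reached that level in 1 embryo and Nlrp5 in 0, so both are given as values only. Levels of 1 gene across embryos are given below as CPM scaled for library composition (TMM). Differences come from edgeR's quasi-likelihood test in 1 fit over all embryos, as log2 fold change with its standard error (SE). A gene was called where the Benjamini-Hochberg adjusted p over the 18410 tested genes was under 0.05. Each replicate is 1 embryo and nothing ties embryos to separate females, so the p-values measure the spread between embryos. In single-embryo RNA, fewer cells that hold a transcript and less transcript per cell cannot be told apart. Nor did the assay separate RNA left from the oocyte from RNA made by the embryo.

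**Figure D1:**
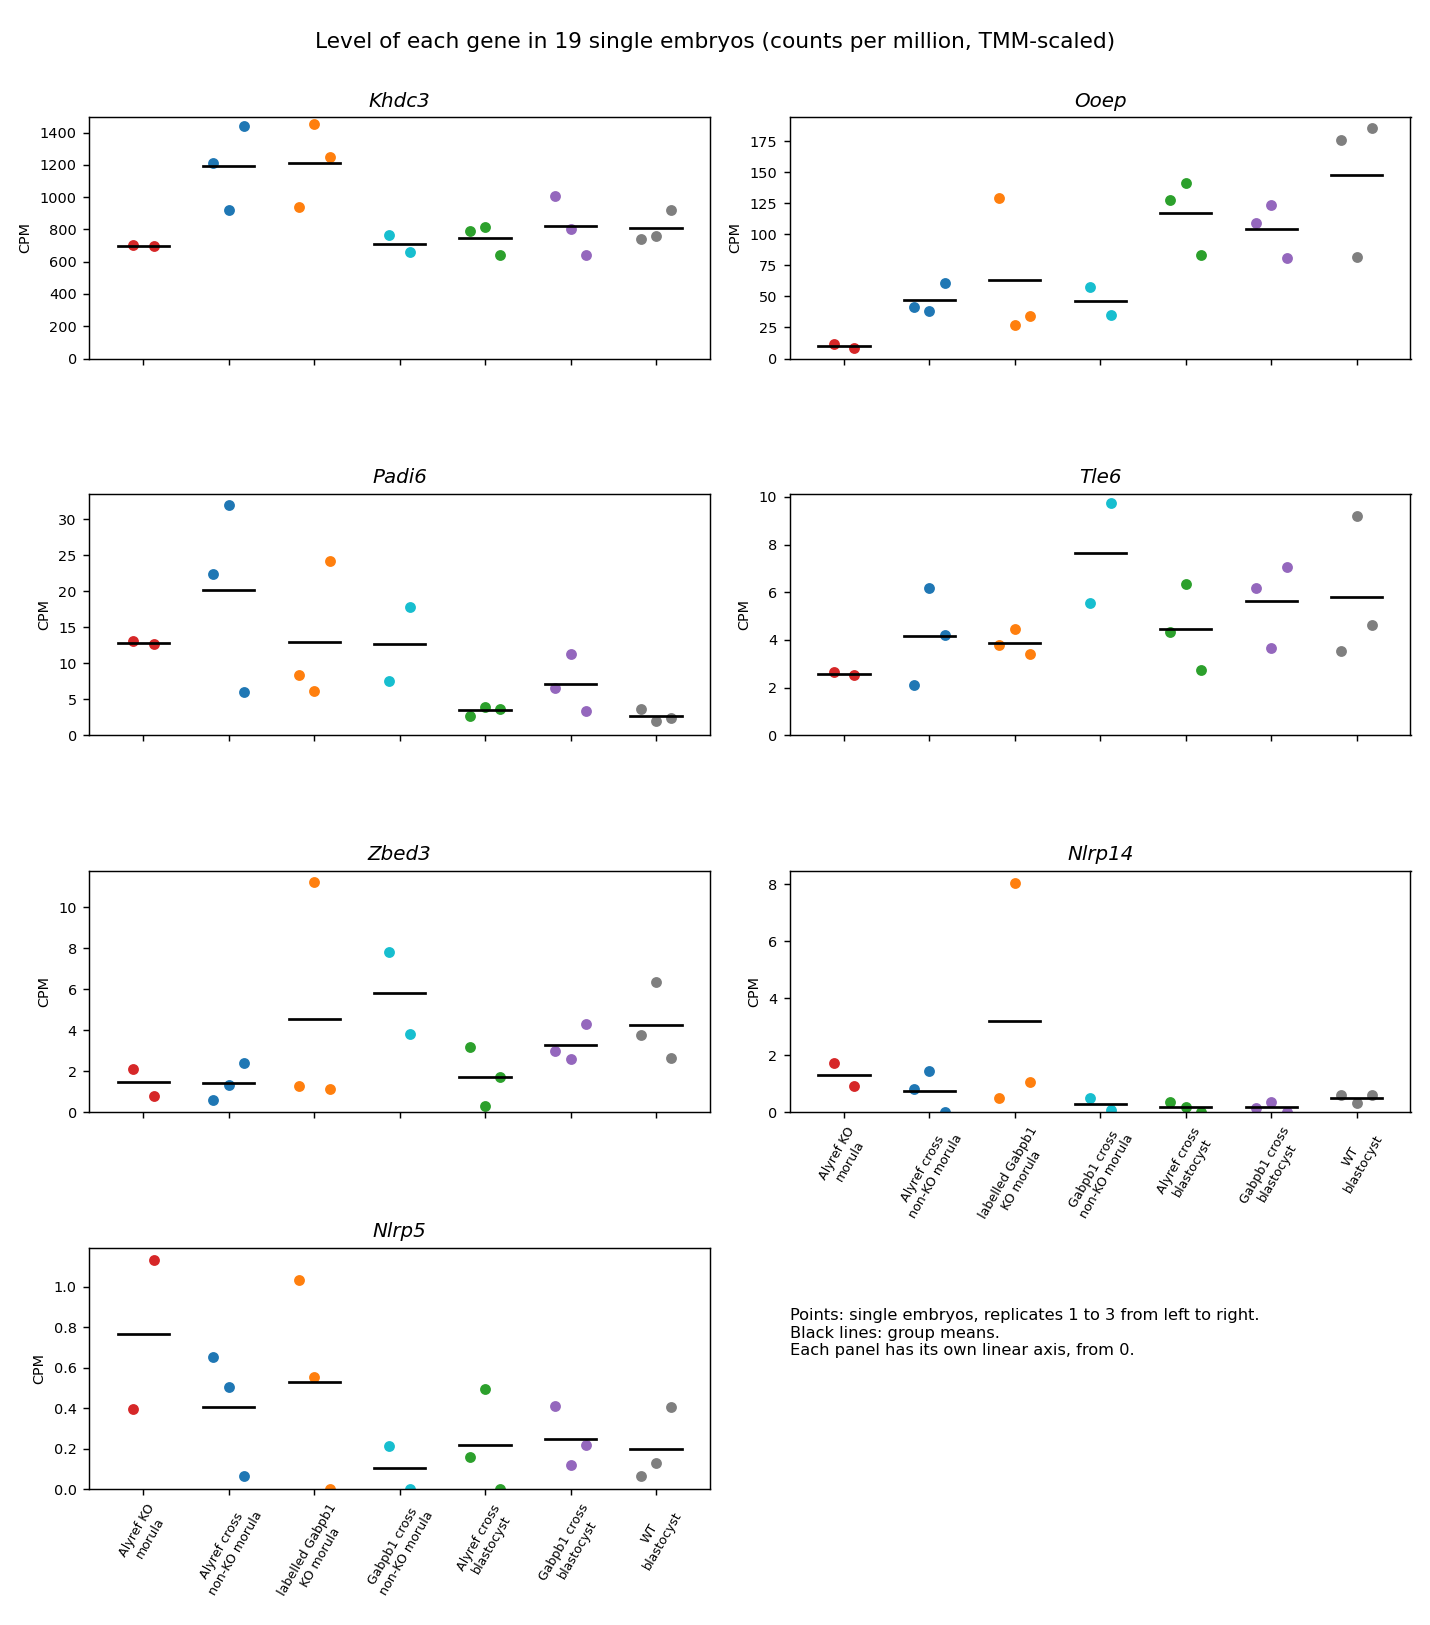
TMM-scaled CPM of each of the 7 genes (vertical axes, linear, from 0) in the 19 embryos, by group (horizontal axes); points are embryos and black lines are group means. Ooep was lowest in the 2 Alyref KO morulae (11.5 and 8.40 CPM) and reached 81.0 CPM or more in all 9 blastocysts, while Khdc3 stayed between 640.0 and 1454 CPM in every embryo.

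Ooep (ENSMUSG00000032346.7, chr9:78376109-78378725, minus strand) encodes a small KH-domain protein of the complex that is needed for its assembly. It was lowest in the Alyref KO morulae and highest in WT blastocysts. In the Alyref KO morulae Ooep stood at 11.5 and 8.40 CPM (87 and 126 counts). The 3 non-KO morulae of that cross held 41.6, 38.2 and 60.6 CPM. Both KO embryos thus lay below these 3, and also below each of the other 17 embryos, whose lowest value was 27.0 CPM. The log2 fold change between KO and non-KO morulae was -2.24 (SE 0.60), 4.73-fold lower in the KO, with an adjusted p of 0.129 by edgeR's quasi-likelihood test, so the gene was not called. Over all tested genes 0.228% were called in that comparison, 12.4% had both KO embryos below the 3 non-KO morulae, and 2.73% had them below all other 17 embryos. DESeq2, run as an alternative, did call Ooep (log2 fold change -2.23, adjusted p 0.00448), and it too called 2.73% of genes. The trophectoderm marker sum of the KO embryos, 1407 and 601 CPM, lay within that of the non-KO morulae. Of 6 epiblast and inner cell mass markers edgeR called 0, with 1 higher and 5 lower in the KO. Nanog stood at 478 to 511 CPM in the KO against 284 to 375 CPM, and Pou5f1 at 57.5 to 80.1 against 95 to 135 CPM. The part of these markers in the Ooep difference was not tested. Without each of the 5 embryos in turn the Ooep change ran from -2.48 to -2.01 and was called in 0 of 5 edgeR fits; the smallest drop was without the third non-KO morula.

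In the morulae labelled Gabpb1 KO, Ooep stood at 129, 27.0 and 34.4 CPM. The non-KO morulae of that cross held 57.6 and 34.9 CPM. One labelled KO embryo lay above both non-KO morulae and the other 2 lay below both, so the groups overlapped. The log2 fold change of 0.46 (SE 0.55, edgeR adjusted p 0.680) turned to -0.59 without the first labelled KO embryo. That embryo also had the highest trophectoderm marker sum of its group, 2473 CPM against 333 and 1007 CPM; the part this plays was not tested.

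In CPM, blastocysts held more Ooep than non-KO morulae. The blastocysts of the Alyref cross stood at 128, 141 and 83.2 CPM, those of the Gabpb1 cross at 109, 124 and 81.0 CPM, and the WT blastocysts at 176, 81.9 and 185 CPM. Every one of the 9 exceeded each of the 5 non-KO morulae, whose highest value was 60.6 CPM. Of all tested genes, 1.91% showed that complete separation. The log2 difference between stages was 1.33 (SE 0.49) in the Alyref cross and 1.18 (SE 0.56) in the Gabpb1 cross, with edgeR adjusted p of 0.0796 and 0.751, so neither was called. DESeq2 called the first (1.34, adjusted p 0.0276), in a fit that called 20.4% of genes, and in the Gabpb1 cross 11.5% of genes had every blastocyst above both morulae. The mean of both stage differences, a comparison added after these values were seen, was 1.25 (SE 0.37, edgeR adjusted p 0.0621). It was called in 4 of 17 alternative fits. These were DESeq2 (1.25, adjusted p 0.00863, 12.9% of genes called) and edgeR without the third non-KO morula of the Alyref cross (1.37, adjusted p 0.0318). The others were edgeR with no filter on low values (1.295, adjusted p 0.0417) and with only the compared groups (1.27, adjusted p 0.0331). The trophectoderm marker sum was 3982 to 6626 CPM in blastocysts and 594 to 4003 CPM in non-KO morulae, and 2 of its 8 genes were called higher and 1 lower between stages of the Alyref cross; their part in the Ooep difference was not tested.

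Khdc3 (ENSMUSG00000092622.8, chr9:73101836-73104438, plus strand), also called Filia, encodes the other KH-domain protein of the complex and is known for a role in keeping chromosomes stable in cleavage embryos. Its 2 Alyref KO values were 701 and 699 CPM, and the non-KO morulae of that cross held 1214, 923 and 1443 CPM. The morulae labelled Gabpb1 KO held 937, 1454 and 1247 CPM and the non-KO morulae of that cross 766 and 657 CPM. The KO embryos were thus all below the non-KO morulae in the Alyref cross and all above them in the Gabpb1 cross. The log2 fold changes were -0.77 (SE 0.24, edgeR adjusted p 0.188) and 0.77 (SE 0.24, edgeR adjusted p 0.109), and neither was called. In the Alyref comparison 0.228% of genes were called, and 12.4% had both KO embryos below the non-KO morulae. In the Gabpb1 comparison 1.65% of genes were called, and 32.2% had groups that did not overlap in either direction. The second change passed the threshold without the first labelled KO embryo (0.92, edgeR adjusted p 0.0417) and with DESeq2 (0.76, adjusted p 0.0367; 6.97% of genes called). Cell type markers differed between the same Gabpb1-cross embryos: the 8 trophectoderm markers summed to 333 to 2473 CPM in the labelled KO and to 2508 and 4003 CPM in the non-KO morulae, and the 6 epiblast and inner cell mass markers to 394 to 505 CPM against 209 and 391 CPM. Of these markers, edgeR called 0 there, with an unadjusted p under 0.05 for 2 in each list, and DESeq2 called 2, both of epiblast and inner cell mass. Their part in the Khdc3 difference was not tested.

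An interaction term compared the 2 KO effects. For Khdc3 it was 1.54 on the log2 scale (SE 0.34, edgeR adjusted p 0.0433), the only member called there, in a comparison that called 0.907% of genes. The non-KO morulae entered this value with their own difference: the Gabpb1-cross morulae lay below all 3 Alyref-cross morulae (log2 difference -0.74, SE 0.24, edgeR adjusted p 0.101, not called), in a comparison with 1.85% of genes called and 36.1% without overlap. DESeq2 called that difference (-0.72, adjusted p 0.0424; 9.28% of genes). The interaction was called in 3 of 10 fits that left out 1 embryo (the second or the third Alyref-cross non-KO morula, or the first labelled Gabpb1 KO morula), with values from 1.38 to 1.69 over the 10, and not called with spike-in scaling (1.06, edgeR adjusted p 0.991). For Ooep the interaction was larger but less precise, 2.70 (SE 0.81, edgeR adjusted p 0.120); DESeq2 called it (2.66, adjusted p 0.0161; 4.86% of genes).

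**Figure D2:**
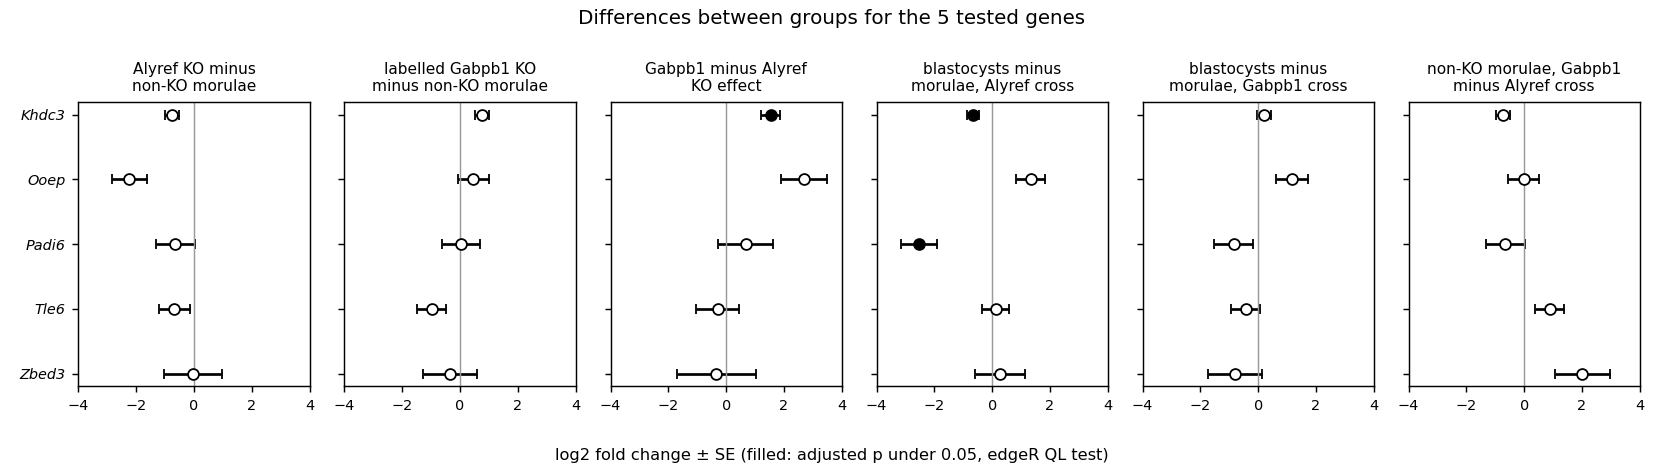
Log2 fold change with its standard error (horizontal axes) for the 5 tested genes (rows) in 6 comparisons (panels); filled points passed an adjusted p of 0.05 in edgeR's quasi-likelihood test. Padi6 (-2.54) and Khdc3 (-0.67) passed between stages in the Alyref cross, and Khdc3 (1.54) passed in the difference between KO effects.

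By stage, Khdc3 fell by 0.67 on the log2 scale from non-KO morulae to blastocysts of the Alyref cross (SE 0.21, edgeR adjusted p 0.0466), 1.59-fold lower. Blastocysts there held 790, 814 and 640 CPM, all below the 3 morulae. That comparison called 13.0% of genes, 7.43% lower, and 38.9% had groups that did not overlap. Epiblast and inner cell mass markers also fell as a sum, from 606 to 718 CPM in the morulae to 295 to 373 CPM in the blastocysts. Of these 6 genes 5 were lower, with 3 called (Nanog, Klf2 and Pou5f1), and 1 was higher. That 1 was Tdgf1, at 73.1 to 146.5 CPM in the morulae and 129.2 to 181.5 CPM in the blastocysts. The part of these markers in the Khdc3 and Padi6 differences was not tested. The Khdc3 call was lost in each of 6 fits that left out 1 embryo (edgeR adjusted p 0.0661 to 0.147). In the Gabpb1 cross the blastocysts stood at 1010, 806 and 642 CPM around the morulae at 766 and 657 CPM, with a log2 difference of 0.20 (SE 0.24, edgeR adjusted p 0.923). WT blastocysts held 740, 757 and 921 CPM, within the range of the other 6.

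The balance between the 2 KH-domain genes differed by group. The ratio of Khdc3 to Ooep in FPKM was 63.7 and 86.7 in the Alyref KO morulae and 24.8 to 30.4 in their non-KO counterparts. It was 13.9 and 19.7 in the non-KO morulae of the Gabpb1 cross and 7.57 to 56.1 in the labelled Gabpb1 KO morulae. Across the 9 blastocysts it ran from 4.38 to 9.66, below every non-KO morula. Both counts carry a limit: Khdc3 shares 790 exonic bases on the same strand with Gm20509, a protein-coding model with 3369 to 13561 counts per embryo, and how reads there were assigned is not given in the sources used here. Ooep transcripts share stretches of 50 to 121 bases, at 95% identity or more, with 11 other genes. Gm20509 itself held 545 and 546 CPM in the Alyref KO morulae against 645, 526 and 764 CPM in their non-KO counterparts, so those groups overlapped for it. In each of the following comparisons it separated in the same direction as Khdc3. It held 445, 951 and 733 CPM in the labelled Gabpb1 KO morulae against 410 and 383 CPM in theirs (32.2% of genes without overlap). Blastocysts of the Alyref cross held 437, 416 and 320 CPM, all below its non-KO morulae (38.9% of genes without overlap).

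Padi6 (ENSMUSG00000040935.12, chr4:140727355-140742643, minus strand), a member of the peptidylarginine deiminase family that oocytes need for their cytoplasmic lattices, was lower in blastocysts than in non-KO morulae of the Alyref cross. The non-KO morulae of the Alyref cross held 22.5, 32.0 and 5.96 CPM and the blastocysts 2.74, 3.97 and 3.70 CPM. All blastocysts lay below all morulae, although the third morula was much nearer to them than the other 2. In that comparison 38.9% of genes had groups without overlap, 13.0% were called and 7.43% were called lower. Padi6 fell by 2.54 on the log2 scale (SE 0.63, edgeR adjusted p 0.0213), 5.80-fold lower. The call was kept with no filter on low values, with the other count scaling and with DESeq2 (adjusted p 0.000736), and lost with spike-in scaling (-2.49, edgeR adjusted p 0.0836) and with only the compared groups in the fit (-2.50, edgeR adjusted p 0.0680). It was kept in 1 of 6 fits that left out an embryo, the one without the third morula (-2.97, edgeR adjusted p 0.00298); the other 5 gave an adjusted p of up to 0.102.

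In the Gabpb1 cross Padi6 stood at 7.61 and 17.8 CPM in non-KO morulae and at 6.59, 11.3 and 3.43 CPM in blastocysts, so the groups overlapped. The log2 difference was -0.85 (SE 0.66, edgeR adjusted p 0.859). No gene was called in that comparison by edgeR (0% of genes), where 1237 genes had an unadjusted p under 0.05 and DESeq2 called 57 (0.310%), so a smaller change for Padi6 than in the Alyref cross cannot be read from it; the difference between crosses was not tested. The mean over both crosses was -1.69 (SE 0.45, edgeR adjusted p 0.0474) in a comparison that called 4.36% of genes. That call was kept in 2 of 11 fits that left out 1 embryo, without the third Alyref-cross morula or the second Gabpb1-cross blastocyst. It was lost with a replicate block and with only the compared groups in the fit. WT blastocysts held 3.61, 2.05 and 2.42 CPM, and the 3 lowest Padi6 levels of the 19 embryos were 2.05, 2.42 and 2.74 CPM.

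Neither KO was accompanied by a called change in Padi6. Alyref KO morulae held 13.1 and 12.7 CPM, inside the range of the non-KO morulae of that cross (log2 fold change -0.64, SE 0.68, edgeR adjusted p 0.771). The labelled Gabpb1 KO morulae held 8.42, 6.20 and 24.2 CPM and also overlapped the non-KO morulae of that cross (0.03, SE 0.67, edgeR adjusted p 0.990). In CPM, Padi6 thus stood at morula levels in the 2 embryos with the lowest Ooep of the series.

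**Figure D3:**
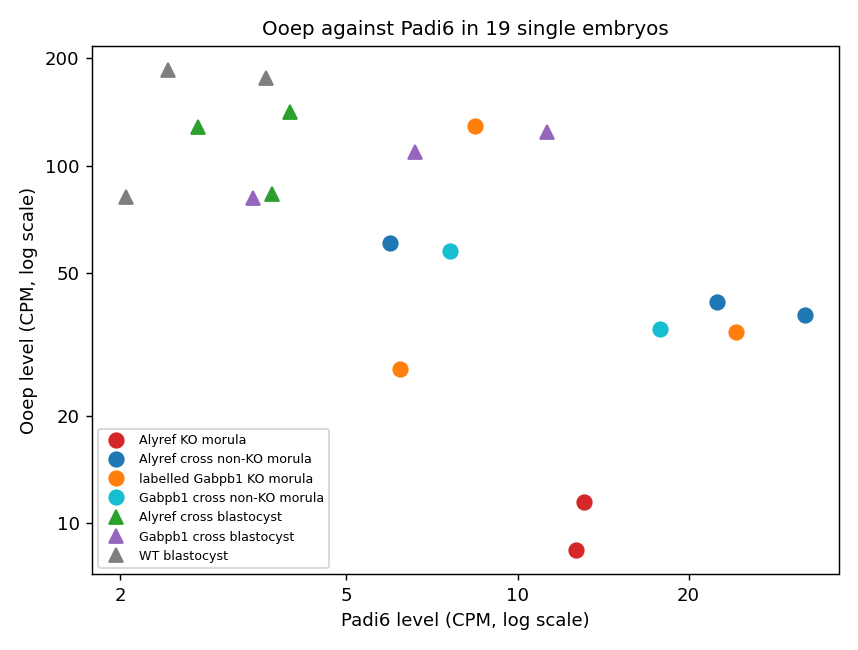
Ooep (vertical axis, CPM, log scale) against Padi6 (horizontal axis, CPM, log scale) in the 19 embryos; circles are morulae, triangles are blastocysts and colours are groups. Blastocysts lie at high Ooep (81.0 CPM or more), and the 2 Alyref KO morulae lie alone at Ooep of 11.5 and 8.40 CPM with Padi6 of 13.1 and 12.7 CPM.

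Ooep and Padi6 ran in opposite directions across embryos, with Spearman's rho of -0.64 over 19 embryos, and Tle6 with Zbed3 had 0.53. The rho of Ooep with Khdc3 was -0.01. These describe libraries that share groups, stages and depth differences, and they carry no p.

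Tle6 (ENSMUSG00000034758.12, chr10:81590904-81601073, minus strand) encodes a transcriptional corepressor-like protein of the Groucho family that sits in the core of the complex. It was low everywhere, at 20 to 144 counts per embryo. Alyref KO morulae held 2.64 and 2.53 CPM and the non-KO morulae of that cross 2.12, 6.16 and 4.21 CPM, which overlap (log2 fold change -0.68, SE 0.53, edgeR adjusted p 0.667). The labelled Gabpb1 KO morulae held 3.78, 4.44 and 3.40 CPM, all below the non-KO morulae of that cross at 5.54 and 9.73 CPM. That difference, -0.98 on the log2 scale (SE 0.50), had an edgeR adjusted p of 0.306 and was not called. In that comparison 32.2% of genes had groups without overlap in either direction, and 1.65% were called. Blastocysts covered 2.75 to 9.22 CPM and overlapped the non-KO morulae in both crosses (log2 differences 0.12 and -0.43).

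Zbed3 (ENSMUSG00000041995.8, chr13:95323612-95337841, plus strand), a zinc finger protein that was described as a later addition to the complex and that binds the Wnt pathway scaffold Axin, was as low and more uneven, at 5 to 121 counts per embryo. Non-KO morulae of the Gabpb1 cross held 7.82 and 3.80 CPM and those of the Alyref cross 0.598, 1.35 and 2.40 CPM. The 2 groups did not overlap, and the log2 difference was 2.0 (SE 0.95, edgeR adjusted p 0.225), not called. In that comparison 36.1% of genes had groups without overlap and 1.85% were called. The second morula labelled Gabpb1 KO reached 11.2 CPM, the highest of the series, while the other 2 held 1.29 and 1.13 CPM. Alyref KO morulae held 2.11 and 0.800 CPM, inside the range of the non-KO morulae of that cross (log2 fold change -0.03, SE 1.0). Blastocysts ran from 0.310 to 6.34 CPM.

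Nlrp5 (ENSMUSG00000015721.18, chr7:23385889-23441922, plus strand), also called Mater, is a classic maternal-effect gene, and Nlrp14 (ENSMUSG00000016626.10, chr7:107166990-107198102, plus strand) encodes another NLR-family protein of the oocyte. Their transcripts were close to the limit of detection. Nlrp5 had 3 and 17 counts in the Alyref KO morulae, 12, 6 and 1 in their non-KO counterparts, 12, 6 and 0 in the labelled Gabpb1 KO morulae and 3 and 0 in theirs. In blastocysts it had 5, 8 and 0 counts in the Alyref cross, 5, 1 and 3 in the Gabpb1 cross and 1, 2 and 6 in WT. The groups overlapped in these counts. A count of 0 allows up to 3 counts, 0.213 to 0.285 CPM in the 3 embryos at 0, as a limit of counting error only. A part of the Nlrp5 transcript matches the pseudogene Nlrp5-ps over 1025 bases, so some of these reads may not be assignable.

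Nlrp14 had 13 and 14 counts in the Alyref KO morulae, 15, 17 and 0 in their non-KO counterparts and 7 and 1 in non-KO morulae of the Gabpb1 cross. Blastocysts had 0 to 11 counts. The exception was the second morula labelled Gabpb1 KO, with 87 counts beside 6 and 15 in the other 2 of its group; it was singled out after its value was seen. In CPM the 3 labelled KO embryos stood at 0.516, 8.05 and 1.06 and the non-KO morulae at 0.498 and 0.0760. The groups thus only just did not overlap, and 32.2% of tested genes showed no overlap in either direction there. In CPM, the embryo with 87 counts also held the highest Zbed3 and Khdc3 levels, the lowest trophectoderm marker sum of the series (333 CPM) and Padi6 at 6.20 CPM. Per 1000 spike-in counts its Zbed3 (0.540) and Khdc3 (70.0) were not the highest of the series, and without TMM scaling its Khdc3 level (678 FPKM) lay below the 723 FPKM of the third non-KO morula of the Alyref cross. With no filter on low values, Nlrp14 in the labelled Gabpb1 KO morulae against the non-KO morulae of that cross gave a log2 fold change of 3.35 (SE 1.40, edgeR adjusted p 0.325), not called.

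Over the 5 tested members, the Alyref KO comparison gave 0 calls by edgeR, 2 genes with an unadjusted p under 0.05 and 1 call by DESeq2, beside 0.228% of all genes called by edgeR and 2226 genes with an unadjusted p under 0.05. All 5 fold changes were negative, with a median of -0.68 against -0.04 over all tested genes; Zbed3 turned positive in 2 of the 5 fits that left out an embryo. The labelled Gabpb1 KO comparison had 0 member calls by edgeR, 1 unadjusted p under 0.05 and 1 call by DESeq2, with 3475 of all genes at an unadjusted p under 0.05, and the members' median was 0.03 against 0.06. Heterozygous-cross blastocysts against WT blastocysts gave 0 member calls by either tool for both crosses and an unadjusted p under 0.05 for 0 and 1 of the 5, where edgeR called 0% of genes, 541 and 1123 genes had an unadjusted p under 0.05 and DESeq2 called 0.0815% and 0.228% of genes. That 1 was Padi6 in the Gabpb1 cross, with a log2 difference of 1.38 (SE 0.62, edgeR adjusted p 0.809). On simulated data with the Alyref KO design over 18410 genes, the share of changed genes that the test recovered was 1.49% at a log2 change of 1, 34.3% at 2 and 63.6% at 3. It made 3 wrong calls. The changed genes were drawn from all tested genes, so these shares do not give the power for a single member.

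Spike-in RNA gave a scale that does not assume a constant RNA total. Ooep stood at 1.42 and 0.929 counts per 1000 spike-in counts in the Alyref KO morulae and at 5.43, 2.12 and 10.5 in their non-KO counterparts, without overlap. The second labelled Gabpb1 KO morula, at 1.30, lay between the 2 KO embryos, so on this scale the KO pair was no longer below all other embryos. Ooep in blastocysts, 5.16 to 17.3, overlapped the 2.12 to 10.5 of the non-KO morulae, although in CPM these groups did not overlap. Khdc3 in the Alyref KO morulae was 86.9 and 77.2, inside the range of the non-KO morulae of that cross at 158, 51.2 and 250. Padi6 in blastocysts, 0.151 to 0.921, lay below the 1.03 to 2.93 of all 5 non-KO morulae, although in CPM these groups overlapped. The share of all genes whose groups did not overlap on this scale was not counted. The separations of Padi6 and Ooep are thus not read as particular to these genes. Scaling the fits by the spike-in moved the median of all genes by stage to -0.34 in the Alyref cross and -0.86 in the Gabpb1 cross; on that scale the stage difference of Padi6 was -2.49 and -1.68, and that of Ooep was 0.91 and 0.32, none of them called.

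**Figure D4:**
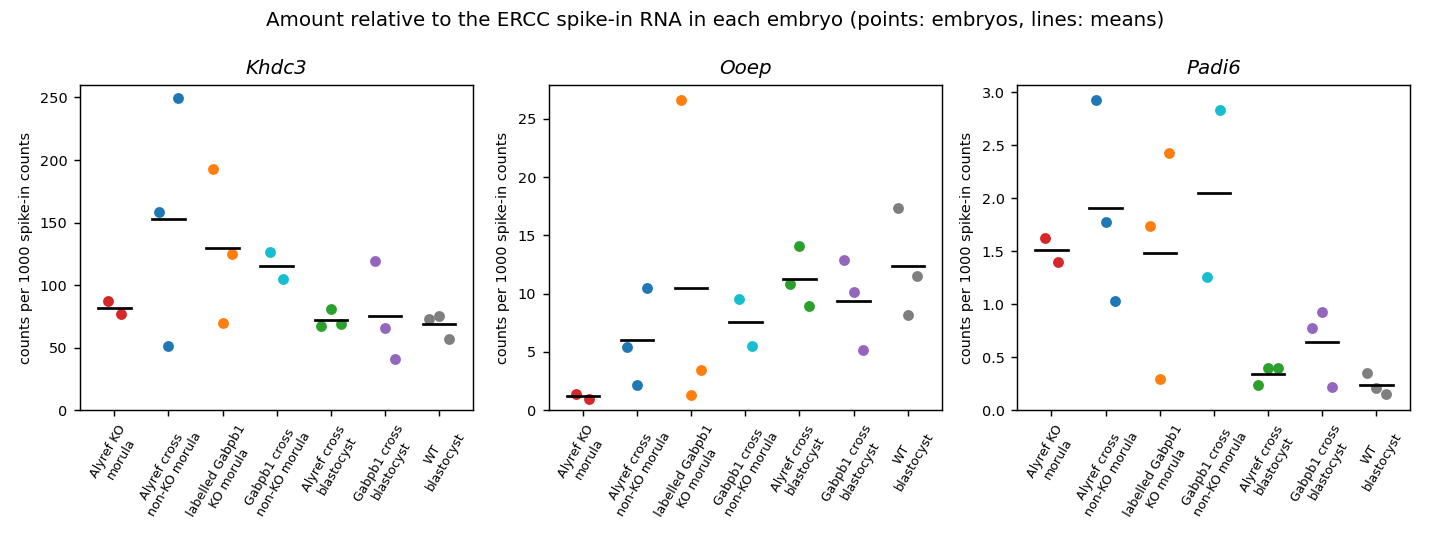
Counts of Khdc3, Ooep and Padi6 per 1000 ERCC spike-in counts (vertical axes, linear, from 0) by group; points are embryos and lines are means. Padi6 lies at 0.151 to 0.921 in the 9 blastocysts and at 1.03 to 2.93 in the 5 non-KO morulae.

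Relatives of the members and other oocyte transcripts were taken as lists. Of 11 other oocyte NLRP genes 3 were tested; Nlrp4c was called lower in the labelled Gabpb1 KO morulae (log2 fold change -1.40, SE 0.33, edgeR adjusted p 0.0446), and Nlrp4f was called higher in non-KO morulae of the Gabpb1 than of the Alyref cross (4.07, SE 0.94, edgeR adjusted p 0.0419). Nlrp4c, the most abundant of the list at a mean of 44.4 CPM, was also called lower by the mean stage difference (-1.32, SE 0.22, edgeR adjusted p 0.0139). The 4 KH-domain paralogues of Ooep and Khdc3 (Dppa5a, Khdc1a, Khdc1b and Khdc1c) were all tested and gave 0 edgeR calls; in the Alyref KO comparison all 4 were lower, with a median of -1.04, 2 unadjusted p under 0.05 and 2 DESeq2 calls. In the labelled Gabpb1 KO comparison all 4 were higher, with a median of 0.82, 1 unadjusted p under 0.05 and 0 DESeq2 calls, against medians of -0.04 and 0.06 over all genes. Dppa5a, the most abundant of them, held 1028 to 1328 CPM in the Alyref KO morulae and 1910 to 2521 CPM in their non-KO counterparts, without overlap. Of all tested genes, 12.4% had both Alyref KO embryos below those non-KO morulae, and DESeq2 called 2.73% in that comparison. The other Padi and Tle genes (3 of 8 tested, Tle4 and Tle1 highest) and 4 genes for described partner proteins (Cfl1, Uhrf1, Slc8b1 and Axin1, 4 of 4 tested) had 0 edgeR calls in every comparison; at most 1 and 2 of them had an unadjusted p under 0.05 in any comparison, and DESeq2 called 1 of each list, both in the labelled Gabpb1 KO.

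Among 26 other oocyte transcripts, 7 were tested. Some of these 7 reached the level needed for testing mainly in morulae or in the labelled Gabpb1 KO embryos, so no direction is read from the list as a whole. In the stage comparison of the Alyref cross Zp3, a zona pellucida glycoprotein, was called lower (-3.41, SE 0.79, edgeR adjusted p 0.0163), and so was Dppa3, a maternal protector of DNA methylation (-1.21, SE 0.28, edgeR adjusted p 0.0152). By the mean stage difference Zp3 (-3.12, SE 0.58, edgeR adjusted p 0.0151) and Dppa3 (-0.75, SE 0.20, edgeR adjusted p 0.0499) were called lower too. Zp3 stood at 3.95 to 4.56 CPM in the Alyref-cross non-KO morulae and at no more than 1.09 CPM in any blastocyst. It thus reached the level needed for testing mainly in morulae, and its calls are not read as support for a fall by stage. In the labelled Gabpb1 KO comparison the list had 0 edgeR calls, 2 unadjusted p under 0.05 and 1 DESeq2 call, and in the Alyref KO comparison it had 0 of each.

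By the rule of highest Spearman's rho over 19 embryos among 8364 genes with a mean FPKM of 5 or more, the genes most like Ooep were Ccdc6 (0.93), Hnrnpa0 (0.92) and Srek1ip1 (0.92). Hnrnpa0, an RNA-binding protein gene, averaged 4.41 CPM in Alyref KO morulae, 13.3 in their non-KO counterparts and 20.3 to 32.1 over the 3 blastocyst groups. Those most like Padi6 were Pigf (0.93), Parp8 (0.92) and Lias (0.91); Parp8 averaged 246 CPM in non-KO morulae of the Alyref cross and 18.8 CPM in its blastocysts. For Khdc3 they were BC052040 (0.82), Rad51ap1 (0.79) and Gm20509 (0.76), the last being the gene that shares its exons. Tle6 was nearest to Pus10 (0.86), Pdxdc1 (0.80) and 4930579G24Rik (0.80), and Zbed3 to Cog6 (0.77), Pdcd6ip (0.77) and Tmx3 (0.76).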

How the data were processed

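Per the submitters' processing notes, reads were trimmed with Trimmomatic, Trim Galore and cutadapt, aligned with STAR to mm10 and counted with featureCounts; versions, strand and overlap settings are not given in the sources used here. The deposited table holds whole-number counts per gene with gene lengths, and 50604 of its gene identifiers had the coordinates of GENCODE M21. Amplification took 16 PCR cycles without molecular identifiers, so counts are not independent molecules.

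Here, 92 ERCC rows were left out of library sizes. Genes with FPKM of 1 or more in at least 2 embryos were tested with edgeR 4.0.16 (R 4.3.3; glmQLFit and glmQLFTest, TMM scaling, 7 group means, 12 residual degrees of freedom, two-sided). SE is the log2 fold change divided by the root of F. Alternatives were no filter, DESeq2 size factors, ERCC scaling, DESeq2 1.42.0, a replicate block, only the compared groups and leaving out each embryo. DESeq2 gave no adjusted p to some genes; these stay in the total of its percentages. The code was tested on simulated data. Near copies were sought with BLAST+ 2.17.0 (at least 50 bases at 95% identity). Likeness used log2(CPM + 1).

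All 7 members are named; list genes are named where called or among the 2 highest, and the 3 genes most like each tested member are named. Members and lists were chosen with earlier results of these data known.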

Additional observations from a re-analysis of the deposited data

Results flagged for a closer look

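The effect of the 2 KO labels on Khdc3 differed by the interaction test: the labelled Gabpb1 KO effect minus the Alyref KO effect was 1.54 on the log2 scale (SE 0.34, edgeR adjusted p 0.0433). That comparison called 0.907% of genes. Both Alyref KO morulae lay below the 3 non-KO morulae of their cross (12.4% of genes). The 3 labelled Gabpb1 KO morulae lay above the 2 of theirs (32.2% of genes without overlap in either direction). The non-KO morulae entered with their own difference, -0.74 for the Gabpb1 against the Alyref cross (SE 0.24, edgeR adjusted p 0.101, not called). Over 16 alternatives the interaction value ran from 1.06 to 1.69, the adjusted p from 0.00182 to 0.991, and it was called in 5.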

How the results depend on the processing

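Of 565 alternative values of single genes, 468 kept direction and side of the threshold, 39 lost a call, 10 gained one and 48 changed sign. All 48 were of genes not called; the cause was not tested. The number of members called by edgeR went from 0 to 1 with DESeq2 in the Alyref KO, the Gabpb1 KO and the non-KO morula comparisons, from 1 to 2 with DESeq2 in the difference of KO effects and in the mean stage comparison, and from 1 to 2 without the filter in the latter. Between stages of the Alyref cross it went from 2 to 3 with DESeq2, to 1 without the filter and to 0 with ERCC scaling or with only the compared groups. The difference of KO effects lost its 1 call (0 left) without the filter, with ERCC scaling and with only the compared groups. In the mean stage comparison with only the compared groups, the 1 call was Ooep and no longer Padi6. Leaving out 1 embryo gave 0 to 1 calls for the Gabpb1 KO, 0 to 1 for the Alyref-cross stages, 0 to 1 for the difference of KO effects and 0 to 2 for the mean stage comparison.

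With a replicate block, calls went from 2 to 1 in the Alyref-cross stages, where Padi6 was the 1, and from 1 to 0 in the difference of KO effects and the mean stage comparison; Tle6 in the Gabpb1 cross against WT became 0.11. The numbers did not pair the embryos: over 52 pairs deviations correlated at -0.20 to 0.26 (median 0.0011), and 7 of 19 embryos correlated best with their own number.

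With ERCC scaling the sign changed for Padi6 (-0.46 in Gabpb1 KO, 0.095 between non-KO morulae, -0.12 in the difference of KO effects), Tle6 (-0.047) and Zbed3 (-0.19) in the Alyref-cross stages, Khdc3 in the Gabpb1-cross stages (-0.62) and in the Alyref cross against WT (0.075), and Ooep between non-KO morulae (0.33). Ooep there was also 0.0054 without the filter, 0.0070 with DESeq2 size factors and with DESeq2, and 0.0060 with only the compared groups; Padi6 in the Gabpb1 KO was -0.046 without the filter.

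Leaving out 1 embryo moved uncalled values across 0. In the Alyref KO, Zbed3 ran from -0.85 to 0.56. In the Gabpb1 KO, Ooep ran from -0.59 to 0.86, Padi6 from -0.81 to 0.77 and Zbed3 from -2.27 to 0.25. In the Alyref-cross stages, Tle6 ran from -0.21 to 0.53 and Zbed3 from -0.55 to 0.87. In the Gabpb1-cross stages Tle6 ran from -0.78 to 0.028, and between non-KO morulae Ooep ran from -0.42 to 0.30. Against WT, Tle6 ran from -0.70 to 0.13 (Alyref) and from -0.29 to 0.47 (Gabpb1), Khdc3 from -0.16 to 0.17 and Zbed3 from -0.61 to 0.050 (Gabpb1). In the difference of KO effects, Padi6 ran from -0.16 to 1.41, Tle6 from -0.69 to 0.16 and Zbed3 from -2.22 to 0.47. In the mean stage comparison Tle6 ran from -0.33 to 0.072 and Zbed3 from -0.68 to 0.037.

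Counts of all genes called depended more on the fit: in the Alyref KO 42 became 502 with DESeq2, 8 with the block, 13 without the filter and 0 with ERCC scaling or only the compared groups, and in the Gabpb1 KO 303 became 1284, 26 with ERCC scaling and 0 with only the compared groups. In the Alyref-cross stages 2402 became 3762, 352 and 24, between non-KO morulae 341 became 1709, 2 and 0, and in the difference of KO effects 167 became 894, 10 and 0, each with DESeq2, ERCC scaling and only the compared groups. In the mean stage comparison 803 became 2369, 1220 and 519, and 401 with the block. Without the third non-KO morula of the Alyref cross, 128 genes were called in the Alyref KO, 4560 in the Alyref-cross stages and 2435 between non-KO morulae. Without the first labelled Gabpb1 KO morula, 966 were called in the Gabpb1 KO.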
